A study of Mus musculus with 12 samples.

Results

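The proteasome subunit genes of the mouse were taken as all protein-coding genes whose symbol begins with Psma, Psmb, Psmc, Psmd, Psme, Psmf or Psmg followed by a number. Of 54532 genes in each expression table, 50 matched, and 48 of these had a mean of at least 0.5 in the crypt table and in the tumor table on the scale of the deposited values (FPKM, which counts fragments per kilobase of a gene relative to the depth of the library). The 48 genes were 14 subunits of the 20S core, 17 of the 19S regulatory particle, 3 of the immunoproteasome (Psmb8, Psmb9 and Psmb10) and 14 others, which are activators, an inhibitor, chaperones and Psmc3ip. Psmc3ip, a recombination factor named for an interaction with Psmc3, matched by its letters and is not a subunit. The 2 genes below the filter were Psma8, the testis form of an alpha subunit, with an FPKM of at most 0.145 in crypts and 0.255 in tumors, and Psmb11, the thymus form of a beta subunit, which was listed at 0 in all libraries but 1.

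The proteasome is the large protease that degrades proteins tagged with ubiquitin. Its 20S core is a barrel of alpha and beta rings with the cleaving sites inside, and the 19S particle at its ends binds tagged proteins, removes the ubiquitin and unfolds them with a ring of ATPases. In cells exposed to interferon gamma, and constitutively in many immune cells, Psmb8, Psmb9 and Psmb10 replace the cleaving subunits Psmb5, Psmb6 and Psmb7, and the resulting immunoproteasome makes peptides for MHC class I.

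Bulk RNA-seq had been made from 12 libraries, 3 per group, of mice on the C57BL/6 background. The crypt groups were small intestinal crypts of adult wild-type mice and of adult ieCtnnb1KO mice, which are homozygous for a deletion, made by gene editing, of an intestinal enhancer upstream of Ctnnb1, the gene of beta-catenin. The tumor groups were colon tumors of APCmin/+ mice, which carry a nonsense mutation in Apc, and of APCmin/+;ieCtnnb1KO mice, which carry both changes, at 5 months of age. The deletion was not limited to a cell type, and the methods for these libraries name crypt cells and tumor tissue with no sort. Fragments on genes numbered 14457896 to 16074777 per crypt library and 14648696 to 16156712 per tumor library.

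Ctnnb1, the target of the enhancer, had an FPKM of 121, 134 and 122.7 in wild-type crypts and 102, 104 and 105 in knockout crypts. In tumors its FPKM was 299, 363 and 358 in APCmin/+ and 279, 248 and 250.2 in APCmin/+;ieCtnnb1KO libraries. Every knockout library was below every control of its tissue, as deposited, in crypts (log2 fold change -0.28, SE 0.118, adjusted p = 0.849, limma; SE is the standard error) and in tumors (log2 fold change -0.39, SE 0.128, adjusted p = 0.303, limma), and neither difference passed an adjusted p of 0.05.

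Some libraries stood apart from others of their group. Genes of the stomach, of which 5 of 8 passed the filter in crypts, summed to an FPKM of 203, 121 and 15.7 in the wild-type crypt libraries and 12.2, 19.1 and 9.77 in the knockout libraries, with Tff2 the most abundant. Genes of the crypt base, 6 of 6 tested and led by the Paneth cell defensin Defa24, summed to 16015, 22191 and 45332 in wild-type and 17714, 14859.5 and 15560.1 in knockout crypts. Of these 6 genes 2 had a log2 fold change above 0, with a median of -0.48. Lower without overlap were 2 (5.15% of all tested genes), and 1 was lower at an unadjusted p under 0.05 (limma, 2.36%). Most of the sum was Defa24 and Lyz1, which were highest in wild-type replicate 3 (Defa24 32836), while Olfm4 and Ascl2 of the same list, named after their values were seen, were lowest in that library. Immune cell genes, of which 14 of 16 passed, summed to 89.9, 94.6 and 98.9 against 84.0, 92.1 and 77.9 in crypts, with Nkg7 the most abundant and S100a8 listed at 0. Of these 14 genes 2 had a log2 fold change above 0, with a median of -0.17. Genes of stroma and vessels, of which 3 of 9 passed in crypts, summed to 6.67, 4.24 and 5.59 against 2.39, 5.27 and 3.28. Of these 3 genes 0 had a log2 fold change above 0, with a median of -0.54, and 1 was lower without overlap (5.15% of all tested genes). In tumors 8 of 8 epithelial genes, led by Krt8, summed to 4425, 4446 and 3885 in control and 5219.5, 5070.3 and 5403 in knockout libraries. Genes of the colon epithelium, 6 of 6 tested and led by Muc2, summed to 304, 290.0 and 291 against 466, 727 and 557, and those of the crypt base, 5 of 6 tested and led by Lyz1, to 1428, 1572 and 1654 against 2278, 3291 and 1231. Genes of stroma and vessels, 9 of 9 tested and led by Col1a1, summed there to 472, 331 and 310.2 against 488, 585 and 502. A log2 fold change above 0 was found in tumors for 8 of 8 epithelial, 6 of 6 colon, 3 of 5 crypt base and 9 of 9 stroma genes. Their medians were 0.31, 0.28, 0.25 and 0.40 in that order. Higher without overlap as deposited were 8, 2, 0 and 5 of them (11.4% of all tested genes). Immune cell genes, of which 10 of 16 passed, summed to 512, 444 and 596 against 467, 588 and 360.4 in tumors, with Lyz2 the most abundant (mean FPKM 356). Of these 10 genes 7 had a log2 fold change above 0, with a median of 0.053. The part of these genes in the results was not tested. In bulk samples, fewer cells of a type and less RNA per cell cannot be told apart.

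Proteasome genes were mostly higher in knockout crypts, by amounts that did not pass the test for any gene. Of the 48 genes, 46 had a log2 fold change above 0, where 52.8% of all 14176 tested genes did, and the median over the 48 genes was 0.18 against 0.014 over all tested genes. The groups did not overlap for 21 of the 48 genes, all higher in the knockout, where 6.79% of all tested genes were higher without overlap and 5.15% lower. An unadjusted p under 0.05 (limma) was found for 5 genes, all higher, against 3.48% of all tested genes higher and 2.36% lower. That number was 0 without knockout replicate 1 (1.72% of all tested genes) and without knockout replicate 2 (2.94%), and 2 without knockout replicate 3 (2.95%) and without wild-type replicate 2 (2.24%). At an adjusted p under 0.05 (limma, Benjamini-Hochberg) the count was 0 of 48, as it was over all tested genes (0%) and with limma voom on recovered fragments, where the unadjusted count was again 5. The lowest adjusted p among the 48 genes was 0.800 (limma). With 3 libraries in each group, an exact two-sided permutation test could reach no p below 0.1.

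**Figure D1:**
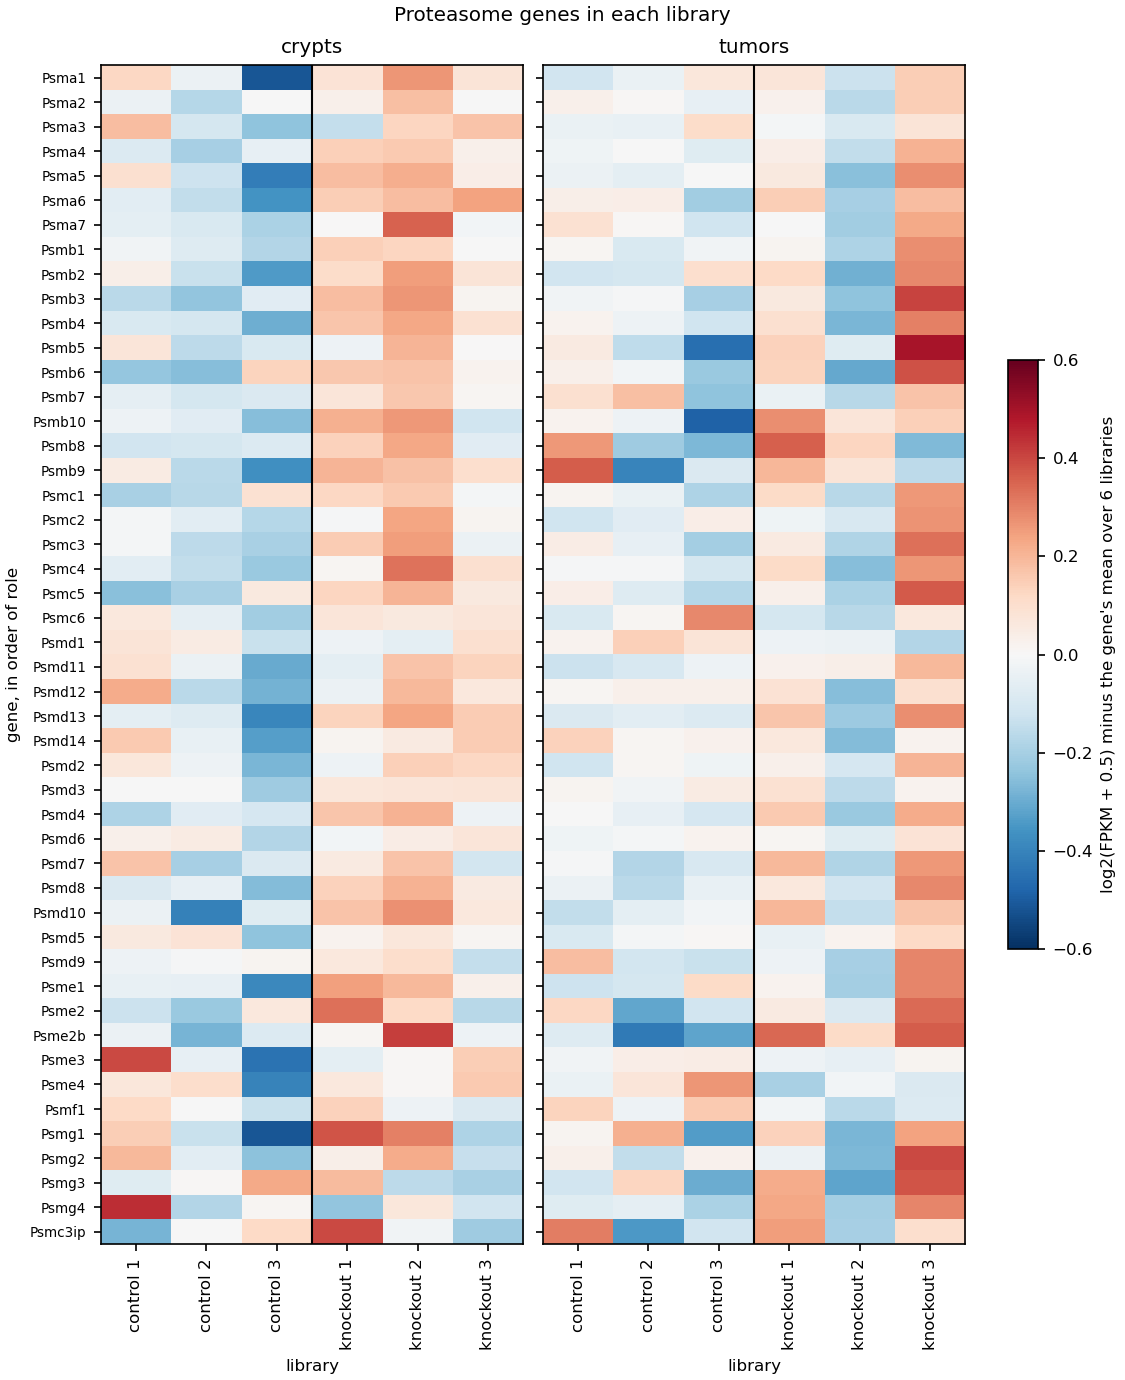
Each row is a tested gene, in order of role, and each column a library of crypts or tumors; color gives log2(FPKM + 0.5) minus the mean of that gene over the 6 libraries of its table. In crypts the column of wild-type replicate 3 has the lowest median (-0.19) and in tumors that of knockout replicate 2 (-0.17).

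The count of separated genes depended on how the libraries were scaled to each other. Rescaled to the same total of FPKM times gene length, 4 of the 48 genes were higher without overlap (6.43% of all tested genes), and with the 50 highest genes kept out of that total 6 were (4.22%). With quantile normalization the number was 2 (5.38% of all tested genes), and no proteasome gene was lower without overlap under any of these scalings. Rescaling to the same summed FPKM, chosen after seeing the data, gave 4 genes (10.04% of all tested genes), or 6 with the 50 highest genes kept out of the sum (3.62%). The same summed FPKM also shifted the median over all crypt genes tested, from 0.014 to 0.14. Relative to the median of all tested genes, the median of the 48 genes was 0.17 as deposited and 0.099 to 0.18 over these 5 scalings, with 42 to 45 genes above the median of all genes, against 44 as deposited. The number higher at an unadjusted p under 0.05 (limma) was 0 to 5 over the same scalings, where 2.01% to 5.18% of all tested genes were.

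**Figure D2:**
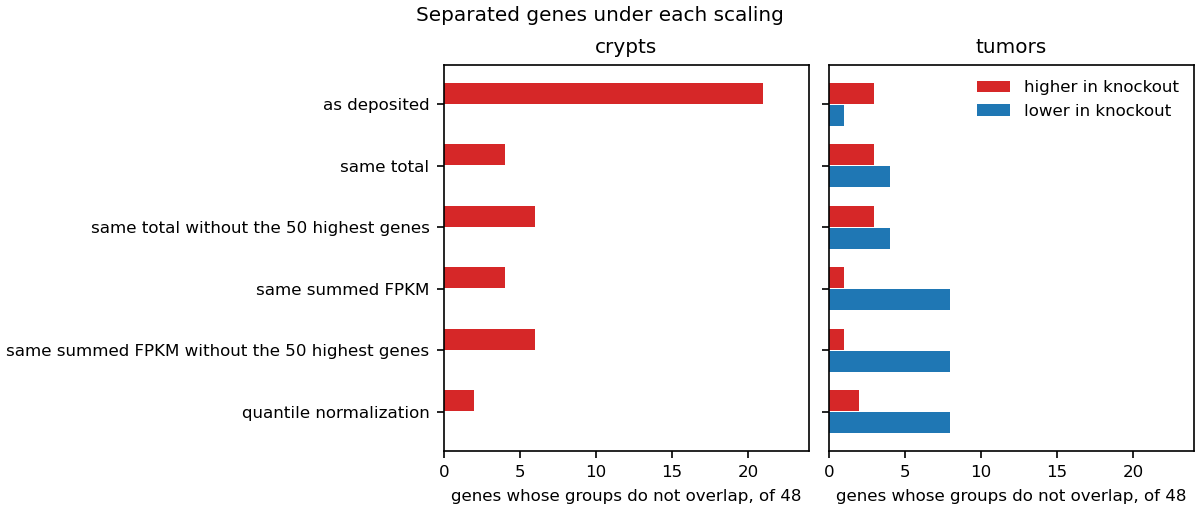
Bars count the tested proteasome genes whose 3 knockout libraries were all above (red) or all below (blue) the 3 controls, out of 48, for the values as deposited and 5 other scalings. The 21 genes higher in crypts as deposited number 2 to 6 under the others (all tested genes 6.79%, and 3.62% to 10.04%), and the genes lower in tumors number 1 as deposited and 4 to 8 under the others (all tested genes 10.6%, and 12.5% to 18.3%).

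By library, the median of the 48 genes, taken as log2(FPKM + 0.5) minus each gene's mean over the 6 crypt libraries, was -0.018, -0.098 and -0.19 in wild-type and 0.096, 0.18 and 0.025 in knockout crypts. Wild-type replicate 3, the library with the highest Defa24, was thus the lowest for the proteasome genes. Without it, 39 of the 48 genes had a log2 fold change above 0, and the median was 0.16. With wild-type replicates 1 and 2 left out, which held most of the stomach gene signal, the median was 0.28, with 43 genes above 0 and 12 higher at an unadjusted p under 0.05 (limma), where 8.87% of all tested genes were. That fit was chosen after seeing the data, and in it wild-type replicate 3 stands alone and is assumed to vary like the knockout libraries.

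All 14 genes of the 20S core had a log2 fold change above 0 in crypts as deposited (13 with quantile normalization), with a median of 0.23, and 9 of them did not overlap as deposited, where 6.79% of all tested genes were higher without overlap. Psma6, a subunit of the alpha ring that gates entry to the barrel, had an FPKM of 85.1, 80.4 and 69.3 in wild-type and 98.6, 101 and 105 in knockout crypts (log2 fold change 0.38, SE 0.129, adjusted p = 0.800, limma; 0.22 with quantile normalization). Its unadjusted p of 0.0214 (limma) was the smallest of the 48 genes. Psmb4, a beta subunit without a cleaving site, had an FPKM of 81.6, 80.9 and 71.0 against 97.6, 102 and 92.6 (log2 fold change 0.32, SE 0.123, adjusted p = 0.823, limma; 0.18 with quantile normalization). Psmb3, another such beta subunit, had 33.2, 31.4 and 35.4 against 42.3, 44.8 and 37.6 (log2 fold change 0.31, SE 0.121, adjusted p = 0.841, limma; 0.20 with quantile normalization). In each of these 3 genes every knockout library was above every wild-type library, though 10.3% of the stretches of 75 bases in Psmb3 also occur in other genes.

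The 17 genes of the 19S particle had a median log2 fold change of 0.16 in crypts, all above 0 as deposited (15 with quantile normalization). Of these 17 genes 7 did not overlap as deposited, again against 6.79% of all tested genes. With the same total, only 4 of all 48 genes were higher without overlap (6.43% of all tested genes). The median of the 19S particle was 0.077 without wild-type replicate 3 and 0.082 with quantile normalization. As deposited it was 0.21 over the 6 ATPases and 0.15 over the 11 other subunits. Psmd13, a lid subunit, had an FPKM of 24.02, 23.7 and 18.9 in wild-type and 27.5, 29.6 and 27.9 in knockout crypts (log2 fold change 0.35, SE 0.130, adjusted p = 0.822, limma), and its groups were apart. Opposite its exons, over 342 bases, lie exons of Sirt3 (mean FPKM 1.64 in crypts). Whether counting used the strand is not given in the sources used here, so reads of such a pair cannot be told apart.

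Among the chaperones, Psmd10, which helps to assemble the base of the 19S particle and is also known as gankyrin, had an FPKM of 11.96, 9.13 and 11.6 in wild-type and 13.9, 14.9 and 12.8 in knockout crypts (log2 fold change 0.34, SE 0.140, adjusted p = 0.845, limma). Its groups were apart as deposited and overlapped with the same total. The 4 chaperones of 20S assembly had a median of -0.014, which was positive with the same total (0.010) and the same summed FPKM (0.13), and included the 2 of the 48 genes with a negative value. Psmg4 had an FPKM of 22.3, 14.4 and 16.4 against 13.7, 17.1 and 15.01 (log2 fold change -0.19, SE 0.182, adjusted p = 0.910, limma), and wild-type replicate 1 was above the other 5 libraries. Psmg3 had 4.64, 4.93 and 5.82 against 5.67, 4.35 and 4.23 (log2 fold change -0.11, SE 0.154, adjusted p = 0.942, limma; 0.030 with the same summed FPKM). Psmc3ip was the lowest of the tested genes in crypts, with an FPKM of 1.10, 1.44 and 1.61 against 2.06, 1.41 and 1.17 (log2 fold change 0.11, SE 0.215, adjusted p = 0.965, limma), and 385 bases of its exons lie opposite Mlx, which had a mean FPKM of 50.7. The groups of these 3 genes overlapped.

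**Figure D3:**
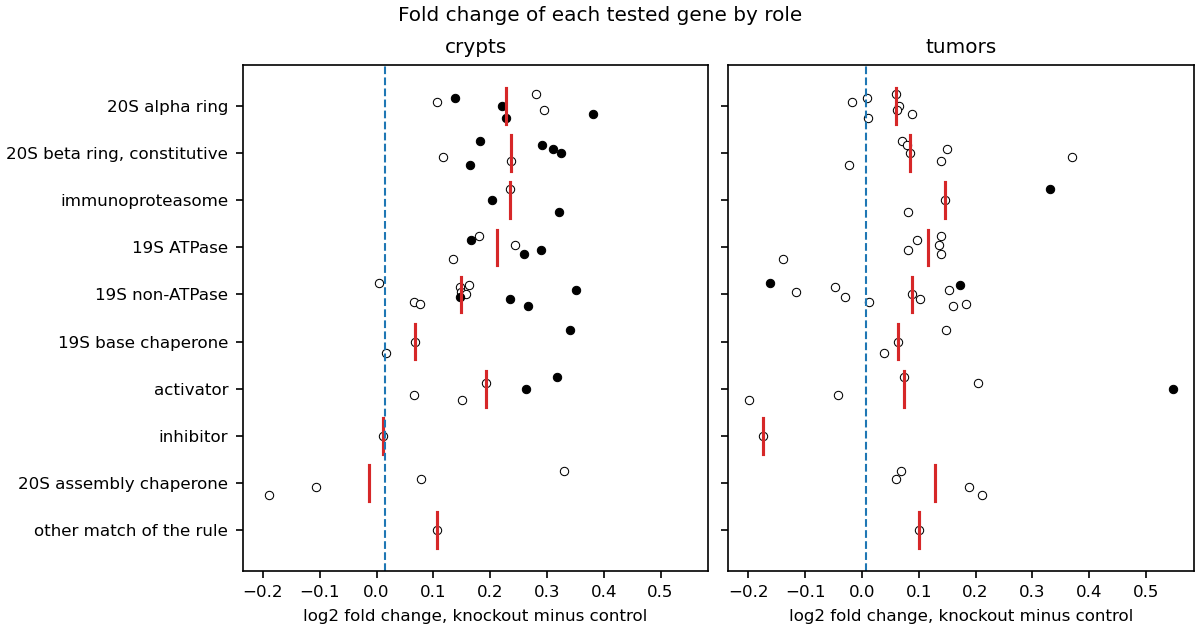
Each point is a tested gene, placed by its log2 fold change (knockout minus control, on log2(FPKM + 0.5)) within its role; filled points are genes whose groups do not overlap, red lines are medians of a role, and the dashed line is the median of all tested genes. As deposited, 46 of 48 points are above 0 in crypts (42 to 47 under the other scalings) and 38 in tumors, with 18 above 0 under the same summed FPKM (35 above the median of all tested genes) and 20 under quantile normalization (21 above that median).

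In tumors 38 of the 48 genes had a log2 fold change above 0 as deposited, where 51.3% of all 16743 tested genes did, and 34 did with the same total, 20 with quantile normalization and 18 with the same summed FPKM. The median of the 48 genes was 0.080 as deposited, against 0.0075 over all tested genes, and was negative with quantile normalization (-0.031) and the same summed FPKM (-0.028), where the median of all tested genes was -0.015 and -0.090. Relative to the median of all tested genes it was 0.073 as deposited, 0.063 with the same summed FPKM (35 of the 48 genes above that median) and -0.016 with quantile normalization (21). By group the median was 0.068 for the core and 0.097 for the 19S particle, both negative with quantile normalization and the same summed FPKM, 0.072 for the others, negative with the same summed FPKM, and 0.15 for the immunoproteasome (0.043 to 0.14 under the other scalings). The groups did not overlap for 3 genes that were higher (Psme2b, Psmb10 and Psmd11) and 1 that was lower (Psmd1), where 11.4% and 10.6% of all tested genes did so. With the same total 4 genes were lower without overlap (13.8% of all tested genes), and 8 were with quantile normalization (12.5%) or the same summed FPKM (17.5%), under which 1 was higher (5.74%). An unadjusted p under 0.05 (limma) was found for 1 gene, Psme2b, against 8.46% of all tested genes higher and 6% lower. At an adjusted p under 0.05 the count was 0 with limma, as over all tested genes (0%), and 0 with limma voom on recovered fragments, which again had 1 gene at an unadjusted p under 0.05.

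Medians of the 48 genes per library were 0.0026, -0.040 and -0.076 in APCmin/+ and 0.062, -0.17 and 0.22 in APCmin/+;ieCtnnb1KO tumors. Knockout replicate 2 was thus the lowest and knockout replicate 3 the highest of the 6, within the same group. Without knockout replicate 3, 21 genes were above 0 and the median was -0.015, with -0.045 for the core, -0.010 for the 19S particle and -0.0077 for the others. The immunoproteasome median was 0.0037 without knockout replicate 1. Without knockout replicate 2, 42 genes were above 0, the median was 0.20, 25 genes were higher without overlap (20.03% of all tested genes) and 10 were higher at an unadjusted p under 0.05 (limma; 9.22% of all tested genes). Without APCmin/+ replicate 1 the number higher without overlap was 5 (19.6% of all tested genes) and that at an unadjusted p under 0.05 was 2 (9.73%). The number lower without overlap was 3 without that library (19.2%) or knockout replicate 3 (14.8%), and 2 without knockout replicate 1 (15.2%), knockout replicate 2 (17.6%) or APCmin/+ replicate 2 (13.8%).

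Psmb5, the chymotrypsin-like cleaving subunit of the core, was the most abundant proteasome gene of the tumor table. Its FPKM was 117, 101 and 81.9 in APCmin/+ and 124, 107 and 158 in APCmin/+;ieCtnnb1KO tumors (log2 fold change 0.37, SE 0.188, adjusted p = 0.406, limma; log2 fold change 0.22 without knockout replicate 3 and 0.17 with quantile normalization). Its groups overlapped, as knockout replicate 2 lay below APCmin/+ replicate 1. The value of Psmb5 is uncertain, as 36.8% of the stretches of 75 bases in its transcripts are shared with other genes, chiefly Gm3375. The other 13 core genes had log2 fold changes between -0.022 and 0.15, and none was separated between the groups.

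In the 19S particle, Psmd11, a lid subunit, had an FPKM of 13.6, 13.9 and 14.6 in control and 15.2, 15.3 and 17.2 in knockout tumors (log2 fold change 0.17, SE 0.0854, adjusted p = 0.399, limma; 0.064 with the same summed FPKM). Psmd1, the scaffold of the base, had 20.7, 22.6 and 21.6 against 19.9, 19.9 and 17.97 (log2 fold change -0.16, SE 0.0827, adjusted p = 0.405, limma; -0.27 with the same summed FPKM). Both were separated between the groups as deposited, in opposite directions, and 5.51% of the stretches of 75 bases in Psmd1 also occur in Gm21972 and Htr2b, genes that overlap it. Psmc6, an ATPase, had 29.2, 31.4 and 38.1 against 28.9, 27.6 and 32.6 (log2 fold change -0.14, SE 0.123, adjusted p = 0.607, limma). Psmd14, the subunit that removes ubiquitin, had 35.6, 32.6 and 33.0 against 33.9, 26.9 and 32.9 (log2 fold change -0.12, SE 0.109, adjusted p = 0.631, limma). The groups of Psmc6 and Psmd14 overlapped.

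Psme4, an activator that opens the barrel without the need for ubiquitin, had an FPKM of 24.4, 26.4 and 30.2 in control and 21.9, 24.8 and 23.5 in knockout tumors (log2 fold change -0.20, SE 0.105, adjusted p = 0.417, limma). Psmf1, an inhibitor of the 20S core, had 6.85, 6.06 and 6.98 against 6.12, 5.48 and 5.83 (log2 fold change -0.17, SE 0.1003, adjusted p = 0.445, limma). Both overlapped between the groups. Psmg4 had 21.3, 21.5 and 19.5 against 26.3, 19.3 and 27.5 (log2 fold change 0.21, SE 0.143, adjusted p = 0.505, limma). Psmg3, the lowest tested gene of the tumor table, had 2.78, 3.37 and 2.38 against 3.63, 2.35 and 4.10 (log2 fold change 0.19, SE 0.214, adjusted p = 0.694, limma; log2 fold change 0.048 without knockout replicate 3 and 0.39 without knockout replicate 2). Their groups overlapped as well, with knockout replicate 2 below the other 5 libraries for both.

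Psme1 and Psme2 form the ring activator that is made together with the immunoproteasome. Psme1 had an FPKM of 96.0, 95.7 and 75.6 in wild-type and 118, 113 and 101 in knockout crypts (log2 fold change 0.32, SE 0.148, adjusted p = 0.857, limma). The crypt groups of Psme1 were apart as deposited and overlapped with the same total. In tumors it had 46.6, 47.2 and 55.0 against 51.5, 44.1 and 62.2 (log2 fold change 0.075, SE 0.143, adjusted p = 0.827, limma), a value that was negative with quantile normalization (-0.059) and, where the median of all tested genes was -0.090, with the same summed FPKM (-0.035). Psme2 had 79.4, 74.2 and 90.8 against 109, 94.5 and 77.4 in crypts (log2 fold change 0.19, SE 0.166, adjusted p = 0.907, limma; log2 fold change 0.075 without knockout replicate 1). In tumors it had 28.7, 21.1 and 24.2 against 27.3, 24.7 and 33.4 (log2 fold change 0.20, SE 0.153, adjusted p = 0.544, limma; log2 fold change 0.086 without knockout replicate 3). Its groups overlapped in both tissues.

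Psme2b, a near copy of Psme2, had 39.3, 30.8 and 33.2 in control and 52.7, 44.9 and 53.5 in knockout tumors (log2 fold change 0.55, SE 0.122, adjusted p = 0.269, limma), with an unadjusted p of 0.00317 (limma). In crypts it had 81.2, 68.6 and 78.6 against 84.0, 111 and 81.4 (log2 fold change 0.26, SE 0.162, adjusted p = 0.893, limma). The groups of Psme2b were apart in both tissues as deposited, each time with the knockout above. In crypts the lowest knockout value was 81.4 and the highest wild-type value 81.2. Whether that crypt separation holds under other scalings is not given here. The values of Psme2b and Psme2 are uncertain, because 60.2% of the stretches of 75 bases in Psme2b and 22.9% of those in Psme2 are shared between them, and reads of one can be counted for the other.

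Psmb8 and Psmb9 lie close together on chromosome 17 (GRCm38; 34197721 to 34201454 on the plus strand and 34181988 to 34187764 on the minus strand), and Psmb10 on chromosome 8 (105935735 to 105938444, minus strand). In crypts Psmb8 had an FPKM of 35.5, 35.8 and 36.4 in wild-type and 42.4, 45.4 and 36.8 in knockout libraries (log2 fold change 0.20, SE 0.121, adjusted p = 0.890, limma). Psmb9 had 26.6, 22.9 and 19.8 against 29.6, 29.0 and 27.6 (log2 fold change 0.32, SE 0.136, adjusted p = 0.849, limma). Psmb10, the most abundant proteasome gene of the crypt table, had 122.8, 119.7 and 105 against 145, 150.4 and 115 (log2 fold change 0.24, SE 0.154, adjusted p = 0.896, limma). The groups of Psmb8 and Psmb9 did not overlap as deposited and those of Psmb10 did. The median of the 3 genes was 0.24 as deposited, 0.11 with quantile normalization and 0.38 with the same summed FPKM. Opposite exons of Psmb9, over 212 bases, lie those of Tap1 (mean FPKM 26.0 in crypts and 6.53 in tumors), and opposite those of Psmb8, over 498 bases, those of Gm20496 (0.617 and 0.109), so these values are uncertain.

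In tumors Psmb8 had an FPKM of 9.01, 6.34 and 6.09 in control and 9.68, 8.16 and 6.09 in knockout libraries (log2 fold change 0.15, SE 0.208, adjusted p = 0.757, limma; log2 fold change 0.0037 without knockout replicate 1). Psmb9 had 4.59, 2.501 and 3.22 against 4.04, 3.66 and 3.05 (log2 fold change 0.080, SE 0.213, adjusted p = 0.880, limma), and -0.015 with the same summed FPKM, against -0.090 over all tested genes. Psmb10 had 32.0, 30.9 and 22.4 against 38.5, 33.2 and 34.9 (log2 fold change 0.33, SE 0.149, adjusted p = 0.371, limma). Of the 3 genes Psmb10 alone was separated between the groups as deposited. With the same summed FPKM, only 1 of all 48 genes was higher without overlap (5.74% of all tested genes).

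The constitutive partners were measured in the same libraries. In crypts Psmb5 had an FPKM of 67.6, 57.7 and 60.3 in wild-type and 62.9, 74.2 and 64.3 in knockout libraries (log2 fold change 0.12, SE 0.129, adjusted p = 0.922, limma; -0.0067 with quantile normalization). Psmb6, the caspase-like subunit, had 39.3, 38.7 and 50.8 against 51.8, 52.1 and 47.0 (log2 fold change 0.24, SE 0.144, adjusted p = 0.893, limma). Psmb7, the trypsin-like subunit, had 15.7, 15.2 and 15.4 against 17.2, 18.3 and 16.5 (log2 fold change 0.16, SE 0.104, adjusted p = 0.894, limma). Of the 3 genes Psmb7 alone was without overlap as deposited, and it overlapped with the same total. Opposite its exons, over 405 bases, lie exons of Nek6 (mean FPKM 9.40 in crypts and 5.27 in tumors). In tumors Psmb6 had 61.6, 59.5 and 51.5 against 66.2, 48.6 and 78.6 (log2 fold change 0.14, SE 0.181, adjusted p = 0.733, limma; -0.016 without knockout replicate 3 and 0.0034 with quantile normalization). Psmb7 had 23.1, 24.4 and 18.1 against 20.9, 19.2 and 24.3 (log2 fold change -0.022, SE 0.143, adjusted p = 0.957, limma), and both overlapped.

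**Figure D4:**
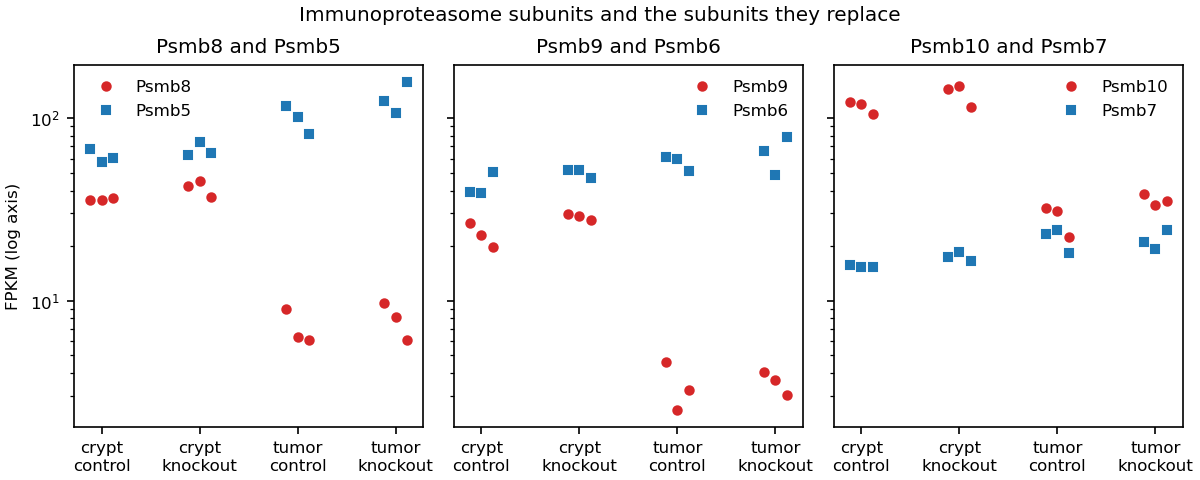
Each panel plots the FPKM (log axis) of an immunoproteasome subunit (circles) and of the constitutive subunit it replaces (squares), 1 point per library and 3 libraries per group, with crypts and tumors from tables that were normalized separately. The circles are lower in tumors in all panels, for Psmb9 between 2.501 and 4.59 against 19.8 to 29.6 in crypts.

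The ratio of each pair within a library stays the same when that library is multiplied by any 1 factor, which does not hold for quantile normalization. Psmb8 over Psmb5 was 0.525, 0.620 and 0.603 in wild-type and 0.674, 0.612 and 0.572 in knockout crypts, and 0.0772, 0.0627 and 0.0743 in control and 0.0783, 0.0764 and 0.0385 in knockout tumors. Psmb9 over Psmb6 was 0.676, 0.592 and 0.389 in wild-type and 0.572, 0.557 and 0.587 in knockout crypts, and 0.0746, 0.0420 and 0.0624 in control and 0.0611, 0.0754 and 0.0388 in knockout tumors. Psmb10 over Psmb7 was 7.82, 7.88 and 6.83 in wild-type and 8.43, 8.20 and 7.01 in knockout crypts, and 1.39, 1.26 and 1.24 in control and 1.84, 1.73 and 1.43 in knockout tumors. Within each tissue the ratios overlapped between genotypes, except for Psmb10 over Psmb7 in tumors, where all 3 knockout values were above the controls. For each pair all 6 crypt ratios were above all 6 tumor ratios. The size of a ratio also depends on the gene lengths used, which are the same in both tables; for Psmb8 the tables give 2736 bases, and its exons in GENCODE M21 cover 3381.

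Levels in crypts and tumors were set side by side for the 48 genes, with no test, since the tables were normalized separately. They also differ in bowel segment, tumor state, Apc genotype and material (isolated crypt cells or tumor tissue), which cannot be told apart. The age of the crypt mice is given only as adult. From the control means, Psmb9 was 6.71 times, Psmb8 5.02 times and Psmb10 4.07 times as high in crypts as in tumors, and these were the first 3 of the 48 genes in that order. Psme2 (3.30 times), Psme2b (2.21 times), Psmg3 (1.80 times) and Psme1 (1.80 times) followed, and for these 7 genes all 6 crypt libraries were above all 6 tumor libraries. Of the 17 genes of the 19S particle, 12 had all tumor libraries above all crypt libraries. Of the 14 core genes 2 did, Psmb5 and Psma3, the latter named after its values were seen. Of 13357 genes tested in both tables, 9.79% were above in crypts in this way and 40.2% in tumors, with a median log2 ratio of tumors over crypts of 0.44. The median was 0.25 for the core, 0.53 for the 19S particle and -2.33 for the immunoproteasome. Immune cell genes differed from each other in this: Lyz2 had a mean FPKM of 10.001 in crypts and 356 in tumors, and Nkg7 22.6 and 0.280.

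Promoter sequence was at hand for 41 of the 48 tested genes, from RefSeq on GRCm38.p6, as 250 bases before and 50 bases after a start of the gene. Psmb1, Psmb2, Psmb7, Psmc3, Psmd3, Psmd7 and Psmg2 had no entry. The first window listed for each gene was searched on both strands for 4 motifs, which may overlap each other. TGACNNNGC, the core of the antioxidant response element bound by NFE2L1 and NFE2L2, was found in 6 of 41 genes (14.6%) and in 12.4% of all 32851 windows. ATCAAAG, a core of the TCF site, was found in Psmd4 and Psmd10 (4.88% against 3.73%). GAAANNGAA, the spaced pair of the interferon response element, was found in 6 genes (14.6% against 8.56%), and in the second window of Psmc2, and TTCNNNGAA, a STAT site, in 3 (7.32% against 8.30%). Of the 3 immunoproteasome genes, Psmb8 held the STAT letters and none held the others.

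The windows of Psmb5 and Psmb6, the constitutive subunits that held the antioxidant response letters, and of Psmb8, which replaces Psmb5, are given 5′ to 3′ on the strand of the gene, with all matched letters in capitals. Psmb5 (chr14:54617946-54618245, minus strand) and Psmb6 (chr11:70525107-70525406, plus strand) carry TGACNNNGC starting 47 and 9 bases before the start of the gene, and Psmb8 (chr17:34197945-34198244, plus strand) carries TTCNNNGAA 97 bases before it; distances are from the RefSeq start of each window, which for Psmb8 lies inside the span of the gene given above.
Psmb5: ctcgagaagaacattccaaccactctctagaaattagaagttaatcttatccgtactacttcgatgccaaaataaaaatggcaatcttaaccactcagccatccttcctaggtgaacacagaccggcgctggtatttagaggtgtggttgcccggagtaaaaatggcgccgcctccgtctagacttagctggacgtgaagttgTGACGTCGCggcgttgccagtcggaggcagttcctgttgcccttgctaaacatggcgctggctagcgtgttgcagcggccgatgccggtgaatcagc
Psmb6: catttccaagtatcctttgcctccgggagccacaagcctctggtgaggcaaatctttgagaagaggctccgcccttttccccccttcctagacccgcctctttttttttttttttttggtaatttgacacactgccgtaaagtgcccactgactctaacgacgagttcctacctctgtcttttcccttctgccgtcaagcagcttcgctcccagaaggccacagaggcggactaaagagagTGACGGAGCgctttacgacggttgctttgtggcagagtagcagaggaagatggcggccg
Psmb8: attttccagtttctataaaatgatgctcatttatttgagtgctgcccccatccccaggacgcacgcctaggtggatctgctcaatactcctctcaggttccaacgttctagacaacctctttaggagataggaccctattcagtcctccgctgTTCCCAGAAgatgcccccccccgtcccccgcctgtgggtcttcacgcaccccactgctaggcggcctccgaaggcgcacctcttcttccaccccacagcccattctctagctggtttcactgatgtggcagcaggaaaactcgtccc
A match is a description of the letters, and binding was not measured here.

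Genes that work with the proteasome were taken from 4 lists, in which no gene passed an adjusted p of 0.05 (limma) in either tissue. Of 10 tested subunits and assembly factors outside the Psm names, 10 had a log2 fold change above 0 in crypts (8 to 10 under the other scalings) and 5 in tumors (3 to 5). In tumors Sem1, a small lid subunit, had an FPKM of 22.2, 15.9 and 12.6 in control and 25.5, 20.3 and 33.1 in knockout libraries (log2 fold change 0.63, SE 0.246, adjusted p = 0.331, limma). Ublcp1, a phosphatase of the proteasome, had 14.0, 15.8 and 13.4 against 11.5, 11.8 and 11.98 (log2 fold change -0.28, SE 0.0900, adjusted p = 0.302, limma). Zfand5, a proteasome activator, had 33.8, 31.7 and 37.9 against 27.0, 29.6 and 28.9 (log2 fold change -0.27, SE 0.0942, adjusted p = 0.313, limma). The groups of Ublcp1 and Zfand5 were apart and those of Sem1 were not. In crypts all 3 overlapped (log2 fold changes 0.016, 0.024 and 0.12).

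Of 13 tested genes of ubiquitin and its shuttles, 7 were above 0 in crypts (4 to 10 under the other scalings) and 8 in tumors (3 to 6). Rps27a, which encodes ubiquitin fused to a ribosomal protein, had an FPKM of 88.9, 89.3 and 131 in control and 179, 147 and 229.5 in knockout tumors (log2 fold change 0.84, SE 0.217, adjusted p = 0.269, limma), without overlap. In crypts it had 224, 149 and 69.2 against 192, 76.8 and 48.1, with overlap (log2 fold change -0.56, SE 0.588, adjusted p = 0.918, limma). Within each crypt group its values fell from replicate 1 to replicate 3, and fits with a library left out are not given for genes of these lists. In the list around NFE2L1, the factor that raises subunit genes when the proteasome is inhibited, 2 of 5 were above 0 in crypts (1 to 5) and 4 in tumors (2 to 3). Syvn1, a ubiquitin ligase of the endoplasmic reticulum, had 16.7, 17.7 and 16.5 against 19.5, 24.2 and 28.3 in tumors (log2 fold change 0.47, SE 0.138, adjusted p = 0.286, limma), without overlap. In crypts Syvn1 had 28.3, 21.8 and 18.8 against 14.7, 22.4 and 26.0, with overlap (log2 fold change -0.14, SE 0.242, adjusted p = 0.957, limma), and knockout replicate 1 was the lowest library. Of 10 tested genes of MHC class I and interferon gamma signaling, 6 were above 0 in either tissue (6 to 9 and 3 to 5 under the other scalings), and none had an unadjusted p under 0.05 (limma). Ifng had a mean FPKM of 0.283 in crypts and was listed at 0 in all tumor libraries.

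In crypts the proteasome genes lay between other large complexes of the same table by median log2 fold change (0.18, with 46 of 48 above 0). Nuclear-encoded respiratory chain genes had a median of 0.24, with 70 of 83 above 0 (64 to 79 under the other scalings), and cytosolic ribosomal protein genes 0.12, with 53 of 73 above 0 (41 to 62). Higher without overlap as deposited were 21 of 48 proteasome, 33 of 83 respiratory chain and 0 of 73 ribosomal protein genes (6.79% of all tested genes). In tumors the respiratory chain and ribosomal protein medians were 0.25 and 0.22, with 80 of 85 (65 to 77) and 64 of 73 (40 to 58) above 0, against 0.080 for the proteasome genes. Proliferation genes, led by Pcna, had a median of 0.19 in crypts, with 8 of 10 above 0 (7 to 10), and of -0.023 in tumors, with 5 of 10 (3 to 4). The part of these genes in the values of the proteasome was not tested.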

How the data were processed

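RNA-seq was measured in 12 libraries, grouped by genotype and tissue from their labels. The submitters' processing notes name cutadapt, HISAT2, Cufflinks 2.2.1, DESeq2 and the build mm10, and the study's methods name featureCounts. The authors deposited FPKM per gene and library in a separate table for each tissue, and how FPKM were computed and whether strand was used are not given in the sources used here. Each library's FPKM times gene length came in whole multiples of 1 step (within 0.01 of a fragment) for 100% of the values, which gave its fragments.

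Genes with a mean of 0.5 FPKM or more were fitted on log2(FPKM + 0.5) with limma 3.58.1 (R 4.3.3) and a variance trend, on the 6 libraries of a table, with Benjamini-Hochberg adjustment over all tested genes at 0.05. This scale understates fold changes of low genes. The labels do not say whether replicates came from separate mice, and legends of the study count 3 mice for each group; p-values measure the spread between these samples. Replicates of a group differed by more than sampling noise (chi-square per gene 19.5 to 103). Other steps used Python 3.11.15, pandas 2.3.3 and matplotlib 3.10.9, with gene models of GENCODE M21.

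The lengths in the tables differ from exon unions for Psma8, Psmb8, Psmb9 and Psmg2. The members and lists were chosen with earlier results of these data known. Named were Psmb5 to Psmb10, Psme1 and Psme2, up to 5 genes per direction and tissue with the smallest p, the highest and lowest tested gene of each table, and partner genes with an unadjusted p under 0.05 (at most 6). Alternatives were other pseudocounts, filters and scalings, no trend, a replicate block, voom on recovered fragments and leaving out each library. The scalings to the same summed FPKM, the fit without wild-type crypt replicates 1 and 2, and the ribosomal and respiratory chain families were chosen after seeing the data.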

Additional observations from a re-analysis of the deposited data

How the results depend on the processing

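No named proteasome gene had an adjusted p under 0.05 (limma) under any alternative run, the lowest being 0.159, and 593 of 610 of their fold changes kept their sign. Genes called at that threshold numbered 0 in both tissues as reported, 14 in crypts and 27 in tumors without a filter on FPKM, 1 in tumors without a variance trend, and 0 to 3 in crypts with each library left out (3 without wild-type replicate 3).

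In crypts, genes higher at an unadjusted p under 0.05 (limma; 5 as reported) numbered 10 without a filter (1.31% of all genes). They numbered 2 and 1 with the same total and that without the 50 highest genes (3.33% and 2.2% of all tested genes). The number was 0 with quantile normalization (2.62%) and with the same summed FPKM without the 50 highest genes (2.01%). With each library left out it was 0 to 7 (1.72% to 5.17%). Those higher without overlap (21) numbered 4 and 6 with the same total and that without the 50 highest genes (6.43% and 4.22% of all tested genes). They numbered 4 and 6 with the summed FPKM likewise (10.04% and 3.62%) and 2 with quantile normalization (5.38%). With each library left out they numbered 21 to 29 (9.57% to 15.5%), and those lower 0 to 1 (8.47% to 12.5%). With the same summed FPKM, medians were 0.33 for all 48 genes, 0.38 for the core, 0.30 for the 19S particle, 0.38 for the immunoproteasome and 0.22 for the others. The core median was 0.12 and that of the 19S particle 0.082 with quantile normalization, the latter 0.077 to 0.21 with each library left out, that of the immunoproteasome (0.24) was 0.11 with quantile normalization and 0.16 to 0.35 with each library left out, and that of the others 0.0081 to 0.19 with each library left out. With wild-type replicates 1 and 2 left out, 40 genes were higher and 1 lower without overlap (35.4% and 29.2% of all tested genes), 12 were higher at an unadjusted p under 0.05 (8.87%), and medians were 0.28 for all, 0.29 for the 19S particle and 0.23 for the others.

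In tumors, at an unadjusted p under 0.05 (limma), 2 genes were higher and 1 was lower without a filter (2.8% and 2.84% of all genes). At that threshold 3 were lower with quantile normalization (7.66% of all tested genes) and with either summed FPKM (10.7% and 11.7%). With each library left out 1 to 10 were higher (5.05% to 9.73%). Those lower without overlap (1) numbered 4 with either total (13.8% and 13.9%), 8 with quantile normalization (12.5%) or either summed FPKM (17.5% and 18.3%) and 1 to 3 with each library left out (13.8% to 19.2%). Those higher (3) numbered 2 with quantile normalization (9.33%), 1 with either summed FPKM (5.74% and 5.92%) and 3 to 25 with each library left out (14.8% to 20.03%). Genes above 0 (38) numbered 20, 18 and 21 to 42 likewise. Over all 48 genes the median was -0.031, -0.028 and -0.029, and -0.015 to 0.20.

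Signs turned in crypts for Psmb5 with quantile normalization (-0.0067), Psmg3 with the same summed FPKM (0.030), Psmb6 (-0.016) and Psmc3ip (-0.068) with wild-type replicates 1 and 2 left out, and Psmc3ip with each library left out (-0.065 to 0.24). In tumors they turned for Psme1 with quantile normalization (-0.059) and the summed FPKM (-0.035, and -0.036 without the 50 highest genes), for Psmb9 with the summed FPKM (-0.015 and -0.016), and with each library left out for Psme1 (-0.052 to 0.19), Psmb6 (-0.016 to 0.33), Psmb9 (-0.098 to 0.28) and Psmb7 (-0.15 to 0.061). With each library left out, values kept their sign but came near 0 for crypt Psmg4 (-0.32 to -0.014) and Psmg3 (-0.23 to -0.019) and for tumor Psmb8 (0.0037 to 0.32), Psmc6 (-0.22 to -0.030) and Psmd14 (-0.18 to -0.014). Other values that moved by over 1.5 times with a library left out were those of Psmb10 (0.16 to 0.35), Psmb5 (0.043 to 0.18), Psmb6 (0.17 to 0.36), Psmd10 (0.22 to 0.41), Psme1 (0.21 to 0.38) and Psme2 (0.075 to 0.32) in crypts and Psmb10 (0.17 to 0.42), Psmb5 (0.22 to 0.50), Psme2 (0.086 to 0.32), Psme4 (-0.27 to -0.11), Psmg3 (0.048 to 0.39) and Psmg4 (0.12 to 0.37) in tumors. With wild-type replicates 1 and 2 left out, crypt values were 0.033 for Psme2, -0.28 for Psmg3, 0.57 for Psmd13, 0.54 for Psme1 and 0.53 for Psmb9. Over the 5 other scalings, fold changes that turned or moved by over 1.5 times were those of Psma6 (0.22 to 0.53), Psmb10 (0.11 to 0.38), Psmb3 (0.20 to 0.46), Psmb4 (0.18 to 0.47), Psmb5 (-0.0067 to 0.26), Psmb6 (0.12 to 0.38), Psmb7 (0.10 to 0.31), Psmb8 (0.095 to 0.35), Psmc3ip (0.063 to 0.22), Psme1 (0.19 to 0.47), Psme2 (0.070 to 0.34), Psmg3 (-0.16 to 0.030) and Psmg4 (-0.25 to -0.046) in crypts (median of all tested genes -0.040 to 0.14) and Psmb10 (0.21 to 0.29), Psmb5 (0.17 to 0.33), Psmb6 (0.0034 to 0.095), Psmb7 (-0.13 to -0.066), Psmb8 (0.043 to 0.14), Psmb9 (-0.016 to 0.10), Psmc6 (-0.25 to -0.18), Psmd1 (-0.27 to -0.21), Psmd11 (0.064 to 0.13), Psmd14 (-0.23 to -0.16), Psme1 (-0.059 to 0.030), Psme2 (0.094 to 0.16), Psme4 (-0.31 to -0.24), Psmf1 (-0.28 to -0.18), Psmg3 (0.092 to 0.21) and Psmg4 (0.10 to 0.17) in tumors (median of all tested genes -0.091 to -0.015). The causes were not tested.

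Libraries with the same replicate number did not deviate together (correlations -0.047, -0.12 and 0.037 in crypts and 0.054, -0.090 and 0.053 in tumors), and some pairs with different numbers correlated more. With the replicate block, 0 crypt genes of the 48 were higher at an unadjusted p under 0.05 (limma), where 2.78% of all tested genes were. In that fit 0 genes passed adjustment in either tissue.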
